A study of Mus musculus with 4 samples.

Results

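The immediate early genes described here are Fos, Fosb, Jun, Junb, Egr1, Ier2, Ier3, Dusp1, Atf3 and Myc, chosen by name. All 10 were found by symbol among the 55487 gene identifiers of the count tables. They were read in liver RNA of 4 mice, all females of the FVB background on standard chow and 11 weeks old. The 2 mice called WT are wild type. The 2 mice called PA are hypomorphic Pcca-/- mice with the substitution A138T, per the labels. Pcca makes the alpha chain of propionyl-CoA carboxylase, which removes propionyl-CoA in mitochondria, and loss of that enzyme causes propionic acidemia. The comparison asks how far these transcripts differ between PA and WT livers and between the 2 PA livers. The hour of sampling, the feeding state at sampling and the interval before freezing are not given in the sources used here.

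Immediate early genes are switched on within minutes of a stimulus, by transcription factors that the cell already holds and without new protein synthesis. Growth factor and stress signals reach them through MAP kinases, which act on serum response factor and its ETS partners at CArG boxes, and through cyclic AMP and CREB at cyclic AMP response elements (CREs). Their messages are short-lived, so a level reflects recent signalling. In liver they are known for their rapid rise after partial hepatectomy and after tissue handling. Fos, Fosb, Jun, Junb and Atf3 encode leucine zipper proteins that pair in AP-1 and related dimers. Egr1 encodes a zinc finger factor, Myc a DNA-binding factor that pairs with MAX, and Dusp1, Ier2 and Ier3 encode regulators.

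Most members were higher in PA replicate 1 than in PA replicate 2, and none passed the test of PA against WT. The promoters of Dusp1, Junb and Fos are shown because those genes stood more than 2-fold higher in PA replicate 1, and that of Atf3 because it ran the other way. RefSeq promoters (GRCm38.p6) were matched for 7 of 10 members; Egr1, Ier2 and Myc had no entry. Each sequence gives the 250 bases before the annotated start, 5′ to 3′ on the gene's strand, and capitals mark the short CRE motif TGACG, the full CRE TGACGTCA that contains it, and TATAAA, each on either strand.
Dusp1 promoter, chr17:26508473-26508722, minus strand: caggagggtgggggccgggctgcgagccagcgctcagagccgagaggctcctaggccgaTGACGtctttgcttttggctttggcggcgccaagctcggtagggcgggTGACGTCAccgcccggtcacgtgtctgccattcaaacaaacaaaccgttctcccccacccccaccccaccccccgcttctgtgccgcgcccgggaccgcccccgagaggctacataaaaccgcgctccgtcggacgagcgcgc
Junb promoter, chr8:84978749-84978998, minus strand: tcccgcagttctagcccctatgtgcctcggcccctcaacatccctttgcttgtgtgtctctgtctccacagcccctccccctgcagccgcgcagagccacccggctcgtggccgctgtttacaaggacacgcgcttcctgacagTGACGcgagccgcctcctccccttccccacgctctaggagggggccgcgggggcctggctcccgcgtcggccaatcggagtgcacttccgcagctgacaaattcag
Fos promoter, chr12:85473640-85473889, plus strand: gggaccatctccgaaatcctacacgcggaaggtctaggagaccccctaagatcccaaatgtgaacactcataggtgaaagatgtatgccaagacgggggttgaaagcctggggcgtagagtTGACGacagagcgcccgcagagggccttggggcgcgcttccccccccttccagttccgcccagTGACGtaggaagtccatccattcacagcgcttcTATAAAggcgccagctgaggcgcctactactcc
Atf3 promoter, chr1:191183334-191183583, minus strand: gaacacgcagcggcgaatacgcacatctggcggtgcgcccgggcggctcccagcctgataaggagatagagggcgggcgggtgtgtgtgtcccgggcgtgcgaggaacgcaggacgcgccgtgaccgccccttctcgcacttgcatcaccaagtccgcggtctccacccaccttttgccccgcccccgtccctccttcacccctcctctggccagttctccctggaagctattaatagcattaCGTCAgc
Dusp1 held the full TGACGTCA, with its first base 143 bases before the start, and a further TGACG at 191. Junb held TGACG at 106 bases, and Fos held it at 129 and 66 bases with TATAAA at 33. In Atf3 the short motif lay on the other strand, 7 bases before the start. Among the matched members not printed, Fosb held TGACG and Jun and Ier3 did not. The short motif thus occurred in 5 of 7 members, against 17.8% of all 32851 RefSeq promoters in the same window. Over those promoters TGACGTCA occurred in 1.55% and TATAAA in 12.4%. The CArG box, found in 1.47%, and the AP-1 site TGACTCA, found in 4.46%, were in none of the 7 windows. These are matches of letters in one window. Sites farther upstream, and the promoters of Egr1, Ier2 and Myc, were not searched.

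Libraries held 25575016 to 30110400 gene counts, so 3 counts stand for 0.0996 to 0.117 CPM (counts scaled to a library of 1e+06). Pcca was read at 60.3 and 58.9 CPM in WT and 34.2 and 47.4 CPM in PA, a difference that did not pass the test (edgeR adjusted p = 0.398), and mutant and normal transcripts cannot be told apart in a gene count. PA replicate 1 stood apart in mitochondrial and multiply mapped reads. Mitochondrially encoded genes took 13.6% of its counts, against 8.98% in PA replicate 2 and 6.9 and 7.38% in WT. Reads mapped to several places made up 13.5%, against 9.11 to 9.42% in the other libraries. All 13 mitochondrially encoded genes listed had a positive log2 fold change, and 1 was called higher, against 0.264% of all genes tested. The 3 listed transcripts kept in the nucleus did not set PA replicate 1 apart. Their sums were 118 and 51.1 CPM in WT and 86.0 and 151 CPM in PA, and none passed. All 5 red blood cell markers were lower in PA, with sums of 47.5 to 88.5 CPM in WT and 11.9 to 16.8 CPM in PA, and Hbb-bs and Hbb-bt passed the test. Of 10 Kupffer cell markers 9 were lower in PA, with sums of 665 to 752 CPM in WT and 350 to 494 CPM in PA, and none passed. All 6 B cell markers were lower in PA, with sums of 16.2 to 18.8 CPM in WT and 6.24 to 8.31 CPM in PA, and none passed; their median log2 fold change was -1.15, against -0.65 for the Kupffer cell list. Of 8 hepatocyte markers 6 had a positive log2 fold change, against 50.6% of all genes tested. Alb, at 120638 to 149441 CPM, was not among the 6 (log2 fold change -0.06). Of 6 pancreas markers Cpa1, Ctrb1, Pnlip and Ins2 were at 0, and the 1 tested, Cela1, read 29.2 and 16.8 CPM in the WT pair and 11.4 and 7.74 CPM in the PA pair (edgeR adjusted p = 0.176). In bulk tissue, fewer cells of a type and less RNA per cell cannot be told apart, and the part of these differences in the results was not tested.

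**Figure D1:**
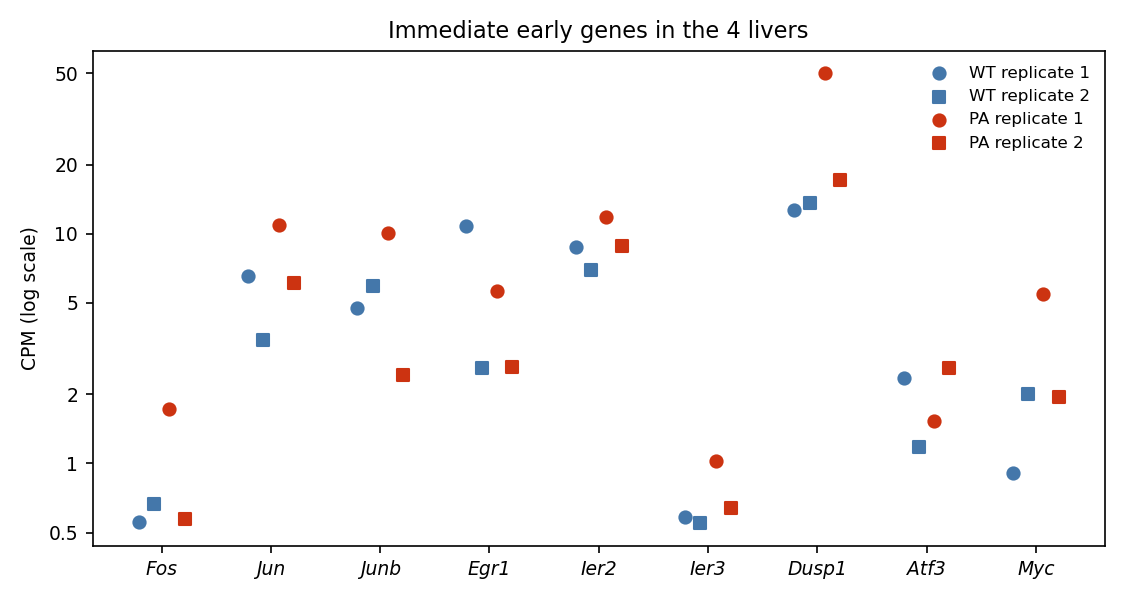
CPM of 9 immediate early genes on a log scale in each of the 4 livers. Circles are replicate 1 and squares replicate 2, blue is WT and red is PA, and Fosb is left out because it was read at 0 to 3 counts. PA replicate 1 was the highest library for Fos, Jun, Junb, Ier2, Ier3, Dusp1 and Myc.

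Per unit of transcript length, in the TPM values (length-scaled transcript shares) of the authors' files, Dusp1 was the most abundant member and Fosb the least. Dusp1 had a mean of 15.3 TPM over the 4 livers (range 9.64 to 29.2) and Ier2 of 6.43 TPM (5.2 to 6.94). Those ranges did not overlap, and Ier2 also lay above Junb, at 3.23 TPM (1.42 to 4.78). Next came Jun at 2.21 TPM, Egr1 at 2.0, Myc at 1.3, Atf3 at 1.14, Ier3 at 0.713 and Fos at 0.485, and from Junb down to Fos each gene's range over the livers overlapped that of its neighbour. Fosb, at 0 to 0.04 TPM, lay below Fos. The members are mostly compact genes: 8 of 10 span under 10 kb in GENCODE M21, and the median span is 4.61 kb, against 20.2 kb over all tested genes. Ier2 and Junb lie 0.312 Mb apart on chromosome 8.

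Of the 10 members 9 passed the filter on low counts, Fosb being the exception. The test of PA against WT was edgeR's quasi-likelihood test over 14411 genes, with Benjamini-Hochberg adjustment and a threshold of 0.05. It called 0 of the 9 members, against 0.812% of all genes tested. At an unadjusted p under 0.05 it found 2 members higher, Dusp1 and Myc, and 0 lower, against 5.88% and 5.93% of all genes. DESeq2 on the same genes and limma-voom called 0 members each, against 1.29% and 0.194% of genes called higher. On all genes with a count, DESeq2 called Dusp1 (adjusted p = 0.036), where 0.762% of genes were called higher. Without a filter on low counts edgeR called Dusp1 and Myc, where 1.7% of all genes were called higher. Of the 9 members, 8 had a positive log2 fold change, against 50.6% of all genes tested, and the median was 0.53, against 0.005 over all genes. Without PA replicate 1 the members' median was 0.17, and without PA replicate 2 it was 0.91. In CPM, Ier2, Ier3 and Dusp1 were above both WT livers in both PA livers, 3 of 9 members, against 21.3% of all genes. By the same measure 0 of 9 were below, against 21.9%, and the other 6 tested members overlapped between the genotypes. In TPM the genotypes also overlapped for Ier2, at 6.94 and 5.2 in WT and 6.69 and 6.88 in PA. In WT, 5 of 9 were higher in replicate 1 than in replicate 2, against 50.1% of all genes.

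Between the 2 PA livers, 8 of 9 members were higher in replicate 1, against 50.2% of all genes tested. Replicate 1 was the highest of the 4 livers for 7 of 9, against 28.6% of all genes. Both counts are in CPM. In TPM Ier2 was highest in WT replicate 1, and was lower in PA replicate 1 (6.69) than in PA replicate 2 (6.88). Fos, Junb, Egr1, Dusp1 and Myc were more than 2-fold higher there, 5 of 9, against 5.68% of all genes tested and 5.24% of the 8677 genes whose mean CPM lies in the members' range. No member was more than 2-fold lower in replicate 1, where 4.25% of all genes were. The median log2 ratio of replicate 1 to replicate 2 was 1.10 for the members and 0.003 for all genes. In the WT pair the members' median was 0.09, with Egr1 more than 2-fold higher and Myc more than 2-fold lower in replicate 1; 3.01% and 2.18% of all genes tested did so. The median size of the log2 difference within the PA pair was 1.10 for members and 0.34 for all genes, and within the WT pair 0.33 and 0.22. Each pair is 1 mouse against 1, so these ratios have no test, and the intervals given with them cover counting error only.

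**Figure D2:**
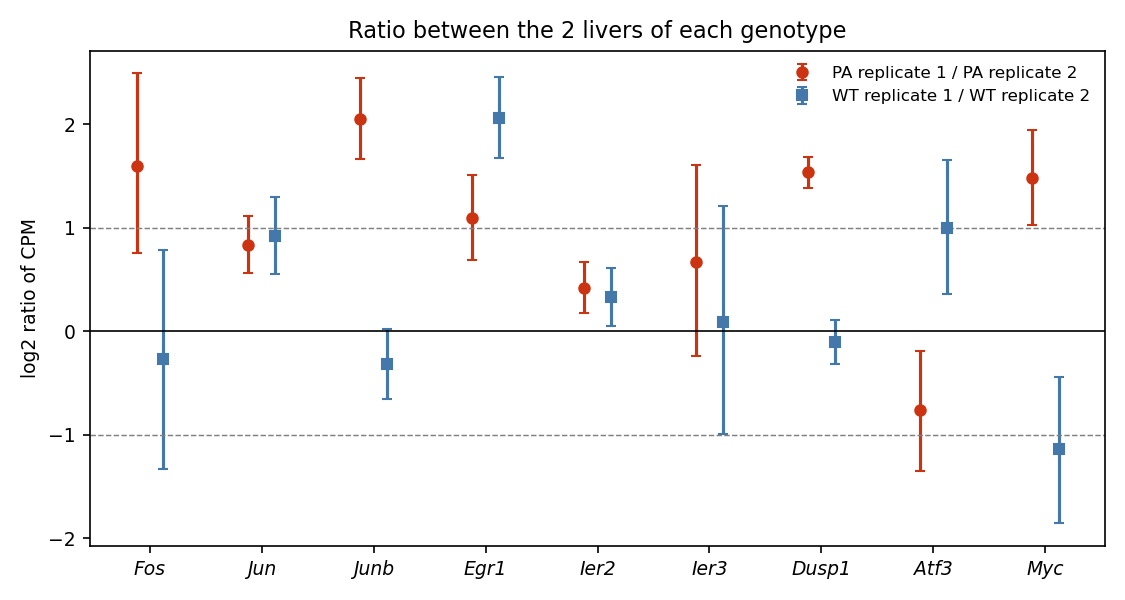
Log2 ratio of CPM between the 2 PA livers (red circles) and between the 2 WT livers (blue squares) for 9 members, with 95% exact binomial intervals of the counts. Dashed lines mark 2-fold. Fos, Junb, Egr1, Dusp1 and Myc lie above 2-fold in the PA pair, Egr1 does so in the WT pair, and Atf3 is the only member below 0 in the PA pair.

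Among the AP-1 subunits, Fos, the partner of JUN proteins in the classic dimer, was scarce. Fos (ENSMUSG00000021250, chromosome 12, 85473890 to 85477273, plus strand, GRCm38) had 17 counts in each WT liver, 44 in PA replicate 1 and 17 in PA replicate 2. That is 0.554 and 0.668 CPM in WT and 1.73 and 0.572 CPM in PA. One PA liver was high and the other lay between the WT livers. The ratio of the PA livers was 3.02 (95% counting interval 1.69 to 5.64), against 0.83 (0.398 to 1.73) for the WT livers. PA over WT came to a log2 fold change of 0.90 ± 0.57 (SE, edgeR adjusted p = 0.609). Leaving out PA replicate 1 gave -0.08, and leaving out PA replicate 2 gave 1.5. Fosb (ENSMUSG00000003545, chromosome 7, 19302696 to 19310051, minus strand), its close relative, had 3 and 0 counts in WT and 1 and 3 counts in PA. These are at or under the level of 3 counts in every liver, so no fold is given.

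Jun, the founding JUN protein and a target of its own dimer, was read at higher levels than Fos. Jun (ENSMUSG00000052684, chromosome 4, 95049034 to 95052222, minus strand) was at 6.55 and 3.46 CPM in WT and at 11.0 and 6.12 CPM in PA. PA replicate 1 was the highest, but PA replicate 2 lay between the WT livers. The WT livers differed as much as the PA livers, with ratios of 1.90 (1.47 to 2.46) and 1.79 (1.48 to 2.17). Between genotypes the log2 fold change was 0.76 (95% interval -0.16 to 1.69, edgeR adjusted p = 0.518). It came to 0.29 when PA replicate 1 was left out and to 0.39 when WT replicate 2 was. Jun overlaps the antisense gene Junos, which held 5 to 14 counts a library and which the strand of the counted column separates.

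Junb, a JUN protein that often opposes JUN, showed the widest gap between the PA livers. Junb (ENSMUSG00000052837, chromosome 8, 84974484 to 84978718, minus strand) read 4.76 and 5.93 CPM in the WT pair, while PA replicates 1 and 2 read 10.1 and 2.42 CPM. The PA livers thus lay on either side of both WT livers. Their ratio was 4.15 (3.18 to 5.47), against 0.803 (0.635 to 1.01) in WT. The genotypes differed by a log2 fold change of 0.22 ± 0.57 (SE, edgeR adjusted p = 0.931). Leaving out PA replicate 1 turned it to -1.13 and leaving out PA replicate 2 gave 0.91. With all libraries kept, limma-voom gave -0.14. Its direction thus rests on the method as well as on which PA liver is kept. The gene's end overlaps Prdx2 on the opposite strand.

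Atf3, a stress-induced leucine zipper repressor, ran against the other members. Atf3 (ENSMUSG00000026628, chromosome 1, 191170296 to 191218039, minus strand) read 2.35 and 1.18 CPM in the WT pair, while PA replicates 1 and 2 read 1.53 and 2.59 CPM. It was 1.69-fold (1.14 to 2.56) higher in PA replicate 2 than in PA replicate 1. The WT livers differed 1.99-fold (1.28 to 3.16), more than the genotypes did. Its log2 fold change between genotypes was 0.22 ± 0.44 (SE, edgeR adjusted p = 0.898). Leaving out WT replicate 2 gave -0.17 and leaving out PA replicate 2 gave -0.22.

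Egr1, a zinc finger factor of the serum and growth factor response, had its highest value in a WT liver. Egr1 (ENSMUSG00000038418, chromosome 18, 34859823 to 34864984, plus strand) read 10.8 and 2.59 CPM in WT replicates 1 and 2. PA replicates 1 and 2 read 5.61 and 2.62 CPM, so both PA livers lay between the WT livers. The ratio of replicate 1 to replicate 2 was 4.16 (3.19 to 5.51) in WT and 2.14 (1.61 to 2.86) in PA. Its log2 fold change of -0.71 (SE 0.64, edgeR adjusted p = 0.735) was the only negative one among the tested members, and it was 0.65 without WT replicate 1. Nab2, a corepressor that binds EGR proteins, was at 16.1 and 14.0 CPM in WT and at 14.3 and 8.85 CPM in PA (log2 fold change -0.38, edgeR adjusted p = 0.652).

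Myc, which drives growth and ribosome production, was low in WT livers. Myc (ENSMUSG00000022346, chromosome 15, 61985391 to 61990374, plus strand) was at 0.913 and 2.00 CPM in WT and at 5.46 and 1.95 CPM in PA, from 28, 51, 139 and 58 counts. PA replicate 1 stood above the rest, and PA replicate 2 lay just under WT replicate 2. The ratio was 2.8 (2.04 to 3.87) in the PA pair, and WT replicate 2 was 2.19-fold (1.36 to 3.61) above WT replicate 1. EdgeR gave a log2 fold change of 1.35 (95% interval 0.01 to 2.69, adjusted p = 0.417). Leaving out PA replicate 1 gave 0.44, leaving out WT replicate 1 gave 0.87 and leaving out WT replicate 2 gave 2.02.

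Among the regulators, Dusp1, the nuclear phosphatase that switches off MAP kinases, had the largest difference in level. Dusp1 (ENSMUSG00000024190, chromosome 17, minus strand, 26505590 to 26562128, of which 2.88 kb lies downstream of the RefSeq start) read 12.7 and 13.6 CPM in the WT pair, while PA replicates 1 and 2 read 49.9 and 17.2 CPM. Both PA livers were above both WT livers. The WT livers agreed within counting error, with a ratio of 0.931 (0.803 to 1.08), while the PA livers differed 2.90-fold (2.62 to 3.22). Against the WT mean, PA replicate 1 was 3.80-fold higher and PA replicate 2 was 1.31-fold higher. On the log2 scale PA exceeded WT by 1.35 (95% interval 0.29 to 2.41, edgeR adjusted p = 0.294). Leaving out PA replicate 1 gave 0.39 and leaving out PA replicate 2 gave 1.92, and only the second was called (edgeR adjusted p = 0.00337), where 1.6% of all genes were called higher, against 0.859% without PA replicate 1. Without mitochondrially encoded genes it was 1.36.

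Ier2, a small nuclear protein of the growth response, varied least among the tested members. Ier2 (ENSMUSG00000053560, chromosome 8, 84661331 to 84662852, minus strand) was at 8.74 and 6.95 CPM in WT and at 11.8 and 8.82 CPM in PA. The genotypes did not overlap in CPM, but PA replicate 2 exceeded WT replicate 1 by less than either pair differed within itself. The PA ratio was 1.34 (1.13 to 1.59) and the WT ratio 1.26 (1.04 to 1.53). In TPM the genotypes overlapped, with WT replicate 1 the highest at 6.94. PA exceeded WT by 0.39 ± 0.25 on the log2 scale (SE, edgeR adjusted p = 0.605). Leaving out PA replicate 1 gave 0.17 and leaving out WT replicate 2 gave 0.25. Ier3, which modulates ERK signalling and cell survival, was near the low end. Ier3 (ENSMUSG00000003541, chromosome 17, 35821684 to 35822923, plus strand) was at 0.587 and 0.55 CPM in WT and at 1.02 and 0.639 CPM in PA, from 14 to 26 counts a liver. Its PA ratio of 1.60 has a counting interval of 0.85 to 3.05, so a difference between the PA livers was not detectable at this depth. The log2 fold change was 0.53 with a 95% interval of -0.50 to 1.56 (edgeR adjusted p = 0.706), while leaving out PA replicate 1 gave 0.17 and leaving out PA replicate 2 gave 0.84.

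**Figure D3:**
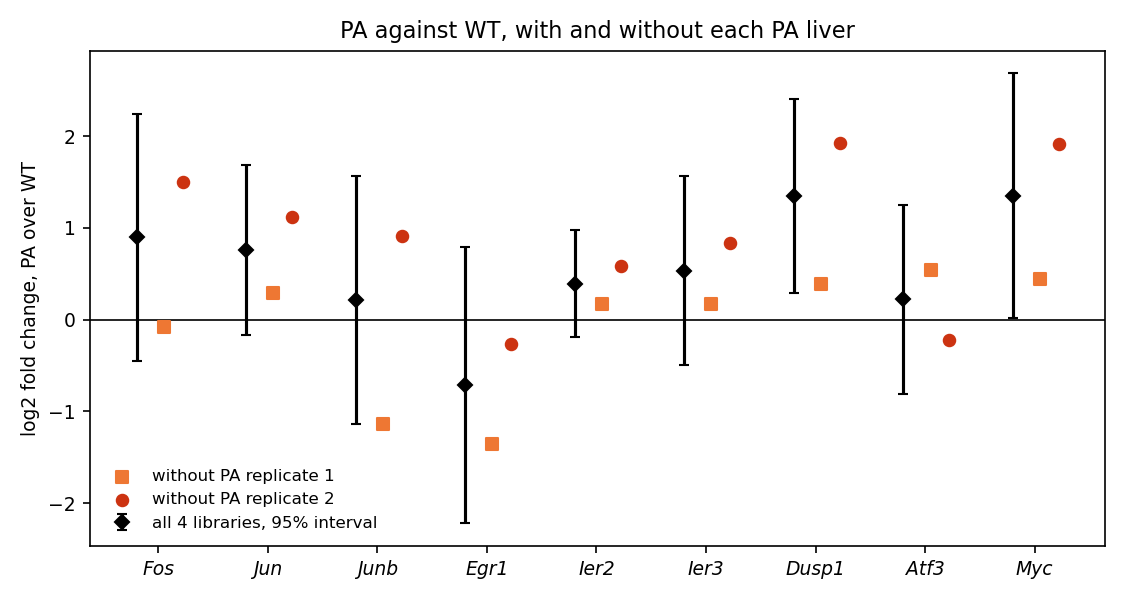
Log2 fold change of PA over WT for 9 members. Black diamonds are the fit of all 4 libraries with its 95% interval, orange squares the fit without PA replicate 1 and red circles the fit without PA replicate 2. For Fos, Junb and Atf3 the orange and red values have opposite signs, and for each of the other 6 members the value without PA replicate 2 lies above that without PA replicate 1.

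Summed over the 10 members, the livers held 48.0 and 37.0 CPM in WT and 98.1 and 43.0 CPM in PA. Much of the excess in PA replicate 1 was Dusp1. Without Dusp1 the sums were 35.3 and 23.3 CPM in WT and 48.2 and 25.8 CPM in PA, and the ratio of the PA livers went from 2.28 to 1.87. In both sums PA replicate 2 lay between the WT livers. After centring each gene's log2 CPM, the mean profile of the 9 tested members was -0.11 and -0.39 in WT and 0.75 and -0.25 in PA. Ier3 lay nearest to that profile, at a Euclidean distance of 0.265 over the 4 libraries, and Egr1 farthest, at 1.58. Of 10993 other protein-coding genes with a mean of at least 1 CPM, the 6 with the most similar profile were Hilpda, Zfp458, Reep4, Exoc3l, Map4k4 and Pik3ap1, at distances of 0.106 to 0.173. Hilpda, a lipid droplet protein, was at 3.26 and 2.91 CPM in WT and at 5.85 and 3.10 CPM in PA. Map4k4, a kinase upstream of JNK, was at 9.55 and 6.79 CPM in WT and at 15.0 and 7.94 CPM in PA. None of the 6 passed the test. They were picked on these same values, so neither that outcome nor the levels given are a separate result.

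The list of 39 other immediate early genes had 30 tested members. The test called 1 of them higher, Ccn2, and 0 lower, against 0.264% and 0.548% of all genes tested. Ccn2, a secreted matricellular protein, rose from 2.38 and 2.12 CPM in WT to 11.5 and 7.94 CPM in PA (2.11 ± 0.28 on the log2 scale, SE, edgeR adjusted p = 0.0286) and was called in 16 of 16 fits. The PA livers differed 1.45-fold in Ccn2 (1.22 to 1.73), less than in Dusp1. Klf6, a zinc finger factor, was at 11.1 and 11.0 CPM in WT and at 20.1 and 18.3 CPM in PA, with a PA ratio of 1.10 (0.97 to 1.24) and an edgeR adjusted p of 0.158. Gadd45g, a stress sensor that activates p38 and JNK signalling, read 3.0 and 2.04 CPM in the WT pair, while PA replicates 1 and 2 read 18.9 and 5.38 CPM. EdgeR put it at 2.26 on the log2 scale (adjusted p = 0.171), and leaving out PA replicate 1 gave 1.09. Gadd45g was called in 5 of 16 fits, among them DESeq2 (adjusted p = 0.00109) and the fit without PA replicate 2 (edgeR adjusted p = 0.00272). The list's median log2 fold change was 0.35, with 23 of 30 positive, against 0.005 and 50.6% over all genes tested. At an unadjusted p under 0.05, 8 of 30 were higher and 0 lower, against 5.88% and 5.93%. Without PA replicate 1 the median was 0.21 and without PA replicate 2 it was 0.50.

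Between the PA livers, 5 of these 30 genes were more than 2-fold higher in replicate 1 and 0 more than 2-fold lower, against 5.68% and 4.25% of all genes tested. The 5, picked here after their values were seen, were Gadd45b, Gadd45g, Klf10, Csrnp1 and Sgk1. Gadd45b had the highest PA ratio, 4.51 (3.55 to 5.77). The WT livers also differed in Gadd45b, at 3.98 and 0.825 CPM. Its log2 fold change between genotypes was 1.72 (edgeR adjusted p = 0.486), and it was called in 3 of 16 fits. Klf10 had a PA ratio of 3.19 (2.72 to 3.75) and a log2 fold change of -0.47 between genotypes, 0.45 without WT replicate 2 and 0.14 without PA replicate 2. Csrnp1 had a PA ratio of 2.68 (2.09 to 3.44), and the genotypes differed by 0.59 on the log2 scale, or -0.28 if PA replicate 1 is left out. Sgk1, a kinase induced by serum and glucocorticoids, read 13.0 and 17.9 CPM in the WT pair, while PA replicates 1 and 2 read 58.8 and 22.8 CPM. Its log2 fold change was 1.40 (edgeR adjusted p = 0.258), and it was called in 4 of 16 fits, among them DESeq2 (adjusted p = 0.030). Per1, a clock gene also induced by glucocorticoids, ran the other way between the PA livers. It read 13.1 and 22.8 CPM in PA replicates 1 and 2, against 7.34 and 9.54 CPM in WT.

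**Figure D4:**
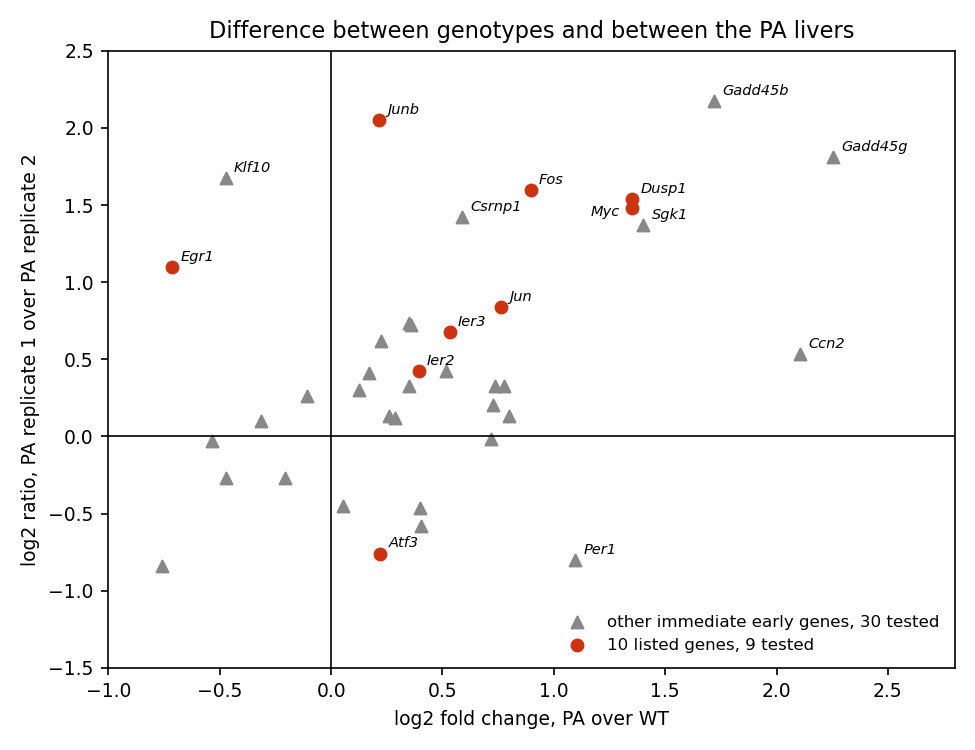
Each point is a tested gene, with the log2 fold change of PA over WT on the x axis and the log2 ratio of PA replicate 1 to PA replicate 2 on the y axis. Red circles are the 9 tested members and grey triangles the 30 other immediate early genes. Ccn2 lies far right with a PA ratio of 1.45, and Junb lies high with a log2 fold change of 0.22.

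Other genes of the pathway were described by list. Of 29 genes of upstream SRF, CREB and MAP kinase signalling, all tested, 0 passed the test and 0 differed more than 2-fold between the PA livers, and the median log2 fold change was 0.02. Egfr, the receptor for EGF, was at 311 and 140 CPM in WT and at 45.8 and 71.3 CPM in PA (log2 fold change -1.94, edgeR adjusted p = 0.114), and DESeq2 called it (adjusted p = 7.33e-05). Egfr was called in 6 of 16 fits, and its value rests in part on WT replicate 1, since leaving that library out gave -1.27 (edgeR adjusted p = 0.248) and leaving out WT replicate 2 gave -2.4. Of 16 tested feedback inhibitors of MAP kinase and EGR signalling, 0 passed and 0 differed more than 2-fold between the PA livers. Dusp6, the cytoplasmic phosphatase of ERK, was at 21.5 and 23.4 CPM in WT and at 35.4 and 41.0 CPM in PA (edgeR adjusted p = 0.172), higher in PA replicate 2, unlike Dusp1. Of 14 tested leucine zipper partners 0 passed. Cebpd was at 1.43 and 0.864 CPM in WT and at 4.87 and 1.88 CPM in PA, a PA ratio of 2.58 (1.87 to 3.61), and it was the 1 member of that list past 2-fold.

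Of 11 tested genes of the MYC network, 0 passed, and 3 were lower at an unadjusted p under 0.05, against 5.93% of all genes tested. The 3 were Mxd1, Mxd4 and Mlxipl, of which Mxd1 and Mxd4 compete with MYC for its partner MAX. In the same list Mxi1 and Mnt had log2 fold changes of -0.07 and -0.10, and the list's median was -0.10. Mxd4 was at 94.3 and 78.3 CPM in WT and at 60.3 and 45.2 CPM in PA (log2 fold change -0.71, edgeR adjusted p = 0.283). Of 14 MYC target genes 0 passed, and 5 were higher in PA replicate 1 than in PA replicate 2, against 50.2% of all genes tested, with a median log2 ratio of -0.39. Of the 9 tested heat shock genes 0 were higher in PA replicate 1, against 50.2% of all genes tested, with a median log2 ratio of -0.65. The WT livers also lay apart in this list, with a median log2 ratio of replicate 1 to replicate 2 of 0.76, against 0.001 over all genes. Of 11 tested genes of the integrated stress response, 5 were more than 2-fold higher in PA replicate 1, against 5.68% of all genes tested. The median log2 ratio was 0.99, against 0.003. The 5 include Fgf21, which had 66 counts in PA replicate 1 and only 3 in PA replicate 2, and Chac1, which had 39 and 6. Between genotypes the list's median log2 fold change was 0.41, with 8 of 11 positive, against 50.6% of all genes tested. At an unadjusted p under 0.05, 3 were higher, against 5.88%, and 1 was lower, Chac1 (log2 fold change -1.76), against 5.93%. Asns, which makes asparagine, was at 0.13 and 0.236 CPM in WT, from only 4 and 6 counts. In PA it was at 3.61 and 1.11 CPM (log2 fold change 3.67, edgeR adjusted p = 0.0899). Asns was called in 6 of 16 fits, among them DESeq2 (adjusted p = 0.000273), and its log2 fold change ran from 2.61 without PA replicate 1 to 4.3 without PA replicate 2. Of 10 tested NF-kB genes, 10 hypoxia genes, 10 glucocorticoid responsive genes and 14 clock genes, 0 passed in each list. At an unadjusted p under 0.05, 0, 2, 4 and 1 genes of these lists were higher, against 5.88% of all genes tested. Lower at that level were 1, 1, 0 and 1, against 5.93%. The lists share genes, so these counts are not separate. Per1 was counted as higher in the other immediate early, glucocorticoid and clock lists. Sgk1 was counted as higher in the other immediate early and glucocorticoid lists. The median log2 ratios of the PA livers were 0.23, 0.07, -0.22 and -0.40 in the NF-kB, hypoxia, glucocorticoid and clock lists. More than 2-fold higher in PA replicate 1 were 1, 1, 3 and 2 genes of these lists, against 5.68% of all genes tested. More than 2-fold lower were 0, 1, 0 and 4, against 4.25%. The clock median thus averages genes that went both ways: Nr1d1 had a PA ratio of 4.64 (3.88 to 5.58) and Per2 of 0.152 (0.129 to 0.179). Npas2 had 38 counts in PA replicate 1 and 2 in PA replicate 2, the second under the level of 3 counts, so no fold is given. It is nonetheless 1 of the 2 clock genes counted as more than 2-fold higher. The WT livers also lay far apart in clock genes, with a median log2 ratio of replicate 1 to replicate 2 of -0.76, against 0.001 over all genes. Dbp, a clock output gene, read 4.86 and 73.6 CPM in the WT pair, and Arntl, a core clock activator, read 15.9 and 1.06 CPM. These 5 clock genes were picked after their values were seen. The part of such differences in the levels of the immediate early genes was not tested, and the hour of sampling is unknown here.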

How the data were processed

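The deposited files hold, per library, raw read counts per gene that the authors made with STAR (2.7.6a, per the submitters' processing notes), and expected counts and TPM per gene deposited by the authors from RSEM (1.3.3, per the same notes), on GRCm38. The annotation release is not given in the sources used here. The opposite-strand count column was used, since it held 96.96 to 97.08% of stranded counts. The 4 summary lines, 28.1 to 34.3% of reads, name no gene and were left out. GENCODE M21 gave names for 55227 of 55487 identifiers; 260 did not match. CPM values use TMM-scaled library sizes of the 14411 genes that passed filterByExpr. PA against WT was tested with edgeR 4.0.16 in R 4.3.3 (quasi-likelihood, prior count 0.125, genotype only) and also with DESeq2 1.42.0 and limma 3.58.1; expected counts were rounded to whole numbers for 1 alternative fit. Intervals of fold changes take the standard error and the fit's degrees of freedom. Ratios of 2 libraries carry exact binomial 95% intervals, which cover counting error only. Scripts were tested on simulated data.

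Sample titles give the groups and the replicate numbers, and the replicates are called biological in the series' design. Over genes that reach 20 counts in a pair, a chi-square statistic was 46.3 per degree of freedom for WT and 135 for PA, so neither pair is a single library. Named genes are the members, Pcca, and of each other list the called genes and at most 3 by smallest p. They also include the 3 most abundant of each marker list and the 6 genes nearest in pattern. Outside this rule fall Nab2, Mxi1, Mnt, Chac1, Fgf21, Ctrb1, Pnlip, Ins2 and the overlapping genes Junos and Prdx2. The genes named as picked after their values were seen also fall outside it. Of the genes the rule names, a selection is described. The members and lists were chosen with earlier results of these data known.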

Additional observations from a re-analysis of the deposited data

How the results depend on the processing

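The count of members called was 0 in most fits; it was 2 with no filter on low counts, and 1 with DESeq2 on all genes with a count, and leaving out 1 library gave 0 to 1. Over all genes, 38 were higher and 79 lower. The counts were 186 and 256 with DESeq2, 186 and 249 with DESeq2 on all genes with a count, and 414 and 488 with no filter. Leaving out 1 library gave 50 to 239 higher and 105 to 261 lower. The replicate numbers pair no samples by design, and deviations of same-numbered libraries correlated at -0.0889 across genes. With the number as a replicate block the counts were 126 and 192, and the log2 fold change of Junb was -0.064. In that fit 0 members were called, while Ccn2, Gadd45g, Gadd45b, Egfr and Asns were called. Leaving out 1 library in turn, the log2 fold change ran from -0.083 to 1.5 for Fos, -1.13 to 0.91 for Junb, -1.39 to 0.65 for Egr1, -0.22 to 0.80 for Atf3, -0.28 to 1.3 for Csrnp1 and -1.53 to 0.45 for Klf10, so their directions reversed; that of Junb was -0.14 with limma-voom. The cause was not tested. The members' median kept its sign in every fit, at 0.17 to 0.91. The count of 5 members past 2-fold between the PA livers was the same with RLE factors, library sizes only, unstranded counts and RSEM expected counts. DESeq2 on all genes and the fit without mitochondrially encoded genes were added after seeing the data. Where 1 library is left out, the lone mouse of its group is assumed to vary like the other group. With 2 mice per genotype a missed call does not show that a gene kept its level, and the depth does not resolve Fosb and Ier3.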
